A study of Mus musculus with 21 samples.

Results

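The Ly6 genes Ly6a, Ly6c1, Ly6c2, Ly6e, Ly6i and Ly6d were followed in inflammatory monocytes (IMs) sorted from mice with and without lung tumors. They were chosen by symbol, as 6 of the 23420 genes in the count table, and all 6 were found in it. The rule itself used no measured values, but the members were chosen with earlier results of these data known. RNA was sequenced from 21 samples in 5 groups. BM IMs came from the bone marrow of healthy FVB mice (n = 3) and healthy DBA2 mice (n = 3). Tumor-infiltrating monocytes (TIMs) came from primary lung tumors (n = 5) and from lymph node metastases (n = 5) of FVB mice given 500000 KAL-LN2-E1 (LN2E1) cells into the lung. TIMs also came from the lungs of DBA2 mice bearing tumors of LN4K1 (n = 5), of which 300000 cells were injected intravenously. LN2E1, made by in vivo passaging, and LN4K1 are mouse lung squamous carcinoma lines, and each model rests on 1 line. Strain, line, route and tissue changed together between the models and cannot be told apart. The BM IMs had a different tissue of origin as well as no tumor, and the number of mice behind a sample was not given in the sources used here. The study's methods give adult mice of both sexes at injection, without the age or sex behind each sample. The study calls the samples of a group technical replicates, so p-values may measure only technical spread.

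Ly6 proteins are small, cysteine-rich domains that most often sit on the outer face of the cell membrane on a glycosylphosphatidylinositol (GPI) anchor. Immunologists know the family mainly as surface markers. Ly6C, the antigen encoded by Ly6c1 and Ly6c2, marks classical inflammatory monocytes, whereas Sca-1, the product of Ly6a, marks hematopoietic stem cells and is raised by interferons on many leukocytes. Here a kit for monocytes came first, followed by a sort on CD45, CD11b, Ly6C and Ly6G with a live/dead dye, and Siglec-F was part of the gate in the study's text. Ly6C protein was therefore part of the gate in every group, and the levels of Ly6c1 and Ly6c2 RNA below are those of cells already chosen for Ly6C protein.

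All 6 genes lie on chromosome 15 in the GENCODE vM21 annotation of GRCm38 (mm10). Ly6d spans chr15:74762056-74763620 on the minus strand, and Ly6e spans chr15:74955051-74959905 on the plus strand. The remaining 4 follow on the minus strand, with Ly6i at chr15:74979534-74983430, Ly6a at chr15:74994877-74998031, Ly6c1 at chr15:75044018-75048830 and Ly6c2 at chr15:75108158-75111970. Each gene has 3 coding exons, and no exon of a member overlaps an exon of another gene. Several members are near copies of each other, which bears on how reads can be assigned, so the 300 coding bases that hold the most differences are given here for both closest pairs, from the annotation's transcripts. They are coding bases 1 to 300 for Ly6c1 and Ly6c2 and 103 to 402 for Ly6a and Ly6i, read 5′ to 3′, and capitals mark the bases that differ between the members of a pair.
Ly6c1: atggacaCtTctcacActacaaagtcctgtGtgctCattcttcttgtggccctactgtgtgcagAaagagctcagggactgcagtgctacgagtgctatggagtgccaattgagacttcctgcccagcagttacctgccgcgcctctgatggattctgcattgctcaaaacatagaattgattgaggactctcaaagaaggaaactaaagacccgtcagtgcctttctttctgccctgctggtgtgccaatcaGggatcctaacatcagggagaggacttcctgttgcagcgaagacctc
Ly6c2: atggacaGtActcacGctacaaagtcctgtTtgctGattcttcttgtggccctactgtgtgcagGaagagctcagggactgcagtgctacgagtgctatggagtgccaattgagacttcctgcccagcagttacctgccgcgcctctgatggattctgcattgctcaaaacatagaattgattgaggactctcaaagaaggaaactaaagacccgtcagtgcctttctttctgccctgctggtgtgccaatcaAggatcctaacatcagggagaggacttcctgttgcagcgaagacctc
Ly6a: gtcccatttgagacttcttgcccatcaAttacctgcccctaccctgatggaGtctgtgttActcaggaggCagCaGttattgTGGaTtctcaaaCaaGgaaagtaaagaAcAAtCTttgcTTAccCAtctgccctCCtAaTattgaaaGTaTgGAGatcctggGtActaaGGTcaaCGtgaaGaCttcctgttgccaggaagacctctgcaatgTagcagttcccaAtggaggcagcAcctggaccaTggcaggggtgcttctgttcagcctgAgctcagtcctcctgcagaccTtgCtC
Ly6i: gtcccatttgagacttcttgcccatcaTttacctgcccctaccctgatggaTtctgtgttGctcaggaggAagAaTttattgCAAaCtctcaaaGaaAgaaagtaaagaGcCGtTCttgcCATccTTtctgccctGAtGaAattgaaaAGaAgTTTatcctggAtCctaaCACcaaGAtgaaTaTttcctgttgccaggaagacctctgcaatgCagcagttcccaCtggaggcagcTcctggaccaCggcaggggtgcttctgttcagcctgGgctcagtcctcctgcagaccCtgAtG

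Over their whole length the coding sequences of Ly6c1 and Ly6c2 differed at 9 of 396 positions (97.7% identity), with an identical run of 188 bases. Those of Ly6a and Ly6i differed at 55 of 405 positions (86.4% identity), with an identical run of 80 bases. Ly6e and Ly6d shared between 48.5% and 52.6% of bases with the other members. Of all stretches of 50 bases in the main transcript of Ly6c1, 31.7% also occurred in Ly6c2, and 5.03% in Ly6a. For Ly6a, 8.05% of such stretches occurred in another gene, 4.03% in Ly6i, and for Ly6e and Ly6d none did (0.0%). The values of Ly6c1 and Ly6c2 are therefore given both apart and summed, since reads from the shared stretches could be split either way by the counting. The reference is a C57BL/6 genome while the mice were FVB or DBA2, and the part of strain differences in these counts was not tested.

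Total counts per library lay between 80772922 and 101043568, so that the 3 counts that a count of 0 allows stand for 0.027 to 0.0406 CPM, the counts scaled to library size. The lowest count of any member in any library was 7. The label of the cells was checked against 7 markers of classical monocytes, Ccr2, F13a1, Vcan, Hp, Chil3, Fn1 and Cd14, none of which was at or under 3 counts in a whole group. Their summed CPM ran from 10288 to 11001 in the FVB BM IMs, from 9146.5 to 11388 in the DBA2 BM IMs, from 14451 to 24666.5 in the primary tumor TIMs, from 10487.5 to 18708.5 in the lymph node TIMs and from 15855.5 to 20471 in the LN4K1 lung TIMs. Each FVB BM IM library also held at least 3416 CPM of 8 neutrophil markers, and each DBA2 one at least 1261 CPM. Their highest sums were 1576, 574 and 1289 CPM in primary tumor, lymph node and LN4K1 lung TIMs. A large part of the TIM sums was Csf3r, with means of 567, 425 and 462 CPM there and 273 and 353 CPM in FVB and DBA2 BM IMs. Ngp, another of the 8, had means of 8.8, 2.98 and 79.7 CPM in primary tumor, lymph node and LN4K1 lung TIMs. In FVB and DBA2 BM IMs its means were 1332 and 364 CPM. For 6 eosinophil markers, BM IM libraries had at least 436 CPM and TIM libraries at most 73.5 CPM. Sums of 6 lung epithelial markers reached 3.64 CPM in BM IMs and 906, 140 and 121 CPM in those TIM groups. What such cells added to the members' levels was not tested. The samples are bulk RNA, so fewer cells of a type and less RNA per cell cannot be told apart.

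In BM IMs of both strains the family was almost wholly Ly6c2 and Ly6e, while in LN2E1 TIMs Ly6a joined them and the share of Ly6c2 was lower. Counts of all 6 members together came to 6284 ± 1226 CPM in the FVB BM IMs (SD, n = 3) and 5254 ± 206 CPM in the primary tumor TIMs (SD, n = 5), with overlapping libraries. They came to 6120 ± 718 CPM in lymph node TIMs, 5476 ± 254 CPM in DBA2 BM IMs and 4484 ± 290 CPM in LN4K1 lung TIMs. Lymph node TIM libraries overlapped FVB BM IMs as well, whereas LN4K1 lung TIM libraries, from 4249 to 4892 CPM, all lay below the DBA2 BM IM libraries, from 5257 to 5754.5 CPM. Ly6a made up 0.0445% of the family's counts in FVB BM IMs and 0.0511% in DBA2 BM IMs. Its share was 10.6% in primary tumor TIMs, 14.0% in lymph node TIMs and 0.855% in LN4K1 lung TIMs. The share of Ly6c2 was 48.4% in FVB BM IMs, 23.7% in primary tumor TIMs and 21.6% in lymph node TIMs, and 47.4% in DBA2 BM IMs against 32.9% in LN4K1 lung TIMs. Ly6e took between 48.0% and 62.5% in every group mean.

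**Figure D1:**
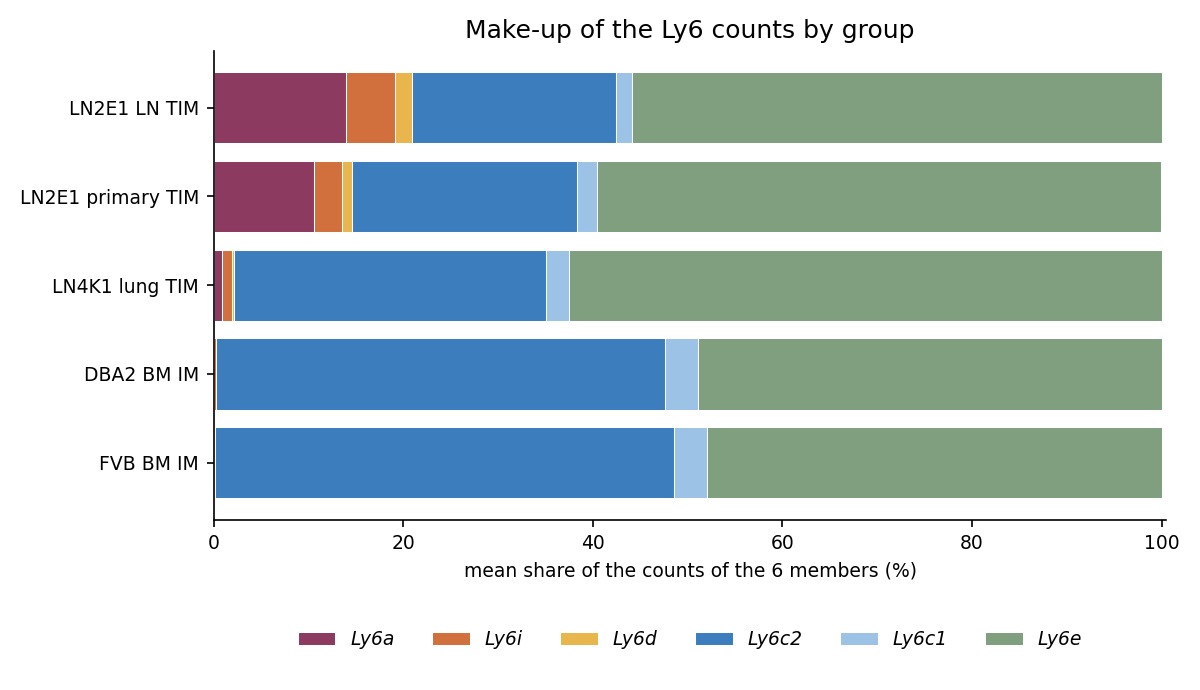
Mean share of each of the 6 genes in the family's summed counts (percent, horizontal axis) in the 5 groups, as stacked horizontal bars. Ly6a and Ly6i are visible in the LN2E1 TIM bars, where Ly6a reached 10.6% and 14.0%, and Ly6c2 shrank from 48.4% in FVB BM IMs to 23.7% and 21.6%.

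CPM per kilobase was taken over the merged exons of all annotated transcripts, 2740 bases for Ly6c2, 1205 for Ly6a and 3784 for Ly6e. Main transcripts were shorter, with 773, 770 and 2232 stretches of 50 bases in the same order. The order of the members depends on this choice of length, and ranks by main transcript were not computed. By merged exons, Ly6c2 stood at 1108 CPM per kb in FVB BM IMs, rank 26 of 14496 genes with counts and a known length. Ly6e followed at 798 CPM per kb (rank 38) and Ly6c1 at 131 CPM per kb (rank 363). On the same scale Ly6a stood at 2.31 CPM per kb in FVB BM IMs, rank 7182. In lymph node TIMs Ly6a reached 717 CPM per kb, rank 59 of 15318 genes, above Ly6c2 at 487 CPM per kb (rank 97). That order rests on the merged length, since in CPM Ly6c2 was higher, at 1335 against 863.5, with main transcripts of similar length. In primary tumor TIMs Ly6a and Ly6c2 stood side by side by merged exons, at 464 and 455 CPM per kb, ranks 85 and 89 of 17055. Without a length they stood at 559 and 1246 CPM. In LN4K1 lung TIMs Ly6a was at 31.8 CPM per kb (rank 1666 of 15769) and Ly6c2 at 538 CPM per kb (rank 81). By merged exons Ly6e was the highest member per kilobase in each of the 3 TIM groups. It stood at 825 CPM per kb in primary tumors, 897 CPM per kb in lymph nodes and 740 CPM per kb in LN4K1 lungs.

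TIMs were set against the BM IMs of the same strain in edgeR, by its quasi-likelihood test, with p adjusted after Benjamini and Hochberg over every gene tested. A gene was called changed at an adjusted p under 0.05. It was called a DEG, with the study's thresholds, where the adjusted p was under 0.0001 and the log2 fold change beyond 1 in either direction. The study applied these thresholds to DESeq2 with shrunken fold changes, and here they were applied to edgeR's values. All 6 members passed the filter on low counts in every comparison. In primary tumor TIMs 5 of 6 members were changed, against 61.9% of the 14569 genes tested. Ly6a, Ly6i and Ly6d rose (33.3% of all genes did), Ly6c1 and Ly6c2 fell (28.6% of all genes did), and Ly6e did not pass. Ly6a, Ly6i, Ly6d and Ly6c2 were DEGs, a class that held 12.9% of genes. In lymph node TIMs the count was again 3 higher and 2 lower, against 37.4% of 13273 genes changed (20.2% higher, 17.2% lower). Ly6a and Ly6i were DEGs there (5.71% of genes). With DESeq2's shrunken fold changes, lymph node Ly6c2 (-1.15, adjusted p = 8.72e-08) and Ly6c1 (-1.06, adjusted p = 9.31e-05), for instance, also met the thresholds. The share of all genes that met them by DESeq2 is not given here. In LN4K1 lung TIMs 3 rose and 2 fell, against 24.9% of 13624 genes changed (13.9% higher, 11.0% lower), and Ly6a was a DEG (2.97% of genes). In each of the 3 comparisons it was Ly6a, Ly6i and Ly6d that rose and Ly6c1 and Ly6c2 that fell. The libraries of TIMs and BM IMs did not overlap for 5, 5 and 4 of the members in primary tumor, lymph node and LN4K1 lung TIMs, beside 58.0%, 42.9% and 34.5% of all genes tested. Primary tumor and lymph node TIMs were set against the same FVB BM IMs. The median log2 fold change of the 6 members was 2.64, 3.22 and 1.16 in primary tumor, lymph node and LN4K1 lung TIMs, beside 0.08, -0.04 and 0.03 over all genes tested. Each of these medians lies midway between Ly6e and Ly6i and is the value of no member, so it does not show a rise of the whole family.

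**Figure D2:**
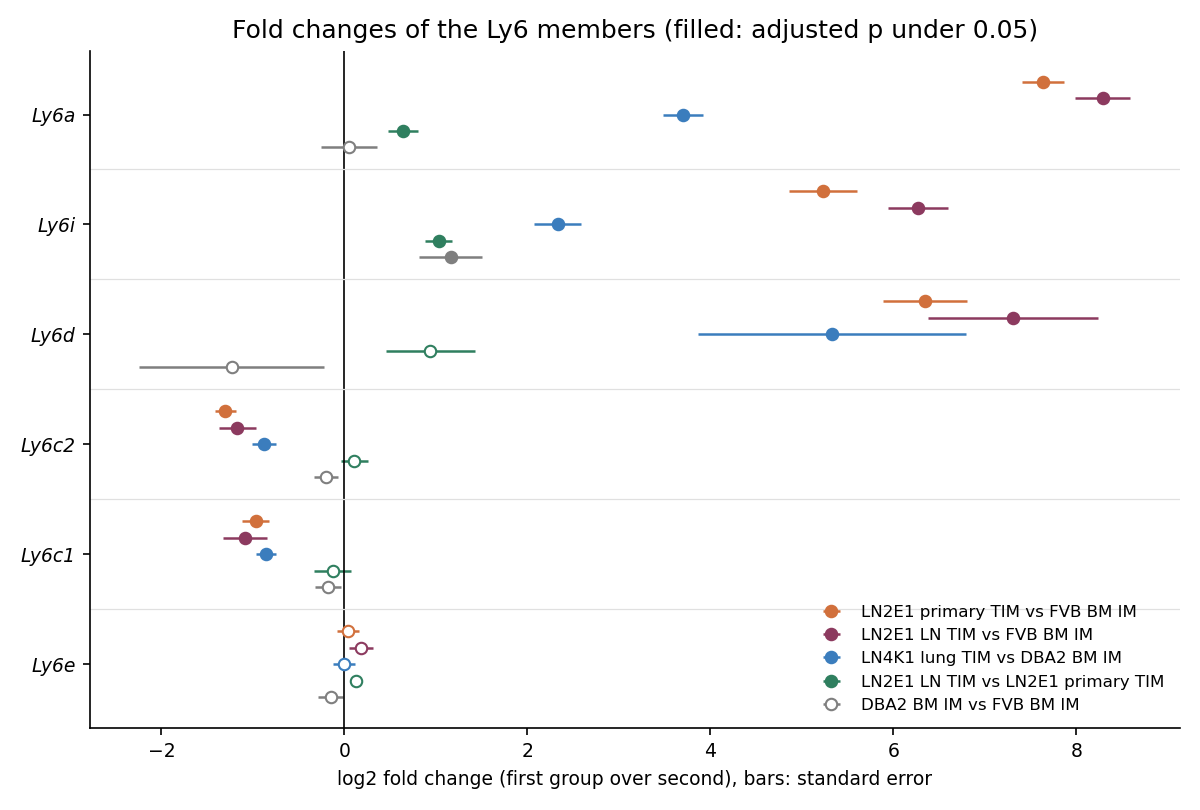
Log2 fold change of each member (horizontal axis, with the approximate standard error as bars) in the 3 comparisons of TIMs with BM IMs, lymph node against primary tumor TIMs, and DBA2 against FVB BM IMs. Filled points passed an adjusted p of 0.05. Ly6a, Ly6i and Ly6d lie to the right of 0 in all 3 TIM comparisons, Ly6c1 and Ly6c2 to the left, and Ly6e within 0.18 of 0.

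Ly6a rose most among the members in primary tumor and lymph node TIMs. In FVB BM IMs it was at 2.89, 3.26 and 2.19 CPM in replicates 1 to 3. Primary tumor TIMs held 534, 654, 537, 634 and 438 CPM in replicates 1 to 5, and lymph node TIMs held 1136, 907, 920.0, 632 and 723 CPM. Every LN2E1 TIM library stood far above every FVB BM IM library. The log2 fold change was 7.64 (SE 0.23, adjusted p = 6.27e-08, edgeR) in primary tumors, or 199.5-fold, and 8.29 (SE 0.3, adjusted p = 2.44e-07) in lymph nodes, or 313-fold. Ordered from the largest rise, Ly6a was gene 657 of 14569 in primary tumor TIMs and gene 132 of 13273 in lymph node TIMs.

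In the LN4K1 model the rise of Ly6a was smaller. DBA2 BM IMs were at 2.35, 3.63 and 2.47 CPM, and LN4K1 lung TIMs at 41.1, 35.4, 32.0, 43.8 and 39.2 CPM. The lung libraries lay close together, above all BM IM libraries and below all LN2E1 TIM libraries. The log2 fold change was 3.7 (SE 0.22, adjusted p = 4.49e-06), or 13-fold. The BM IMs of the strains overlapped in Ly6a, with means of 2.78 and 2.82 CPM and a log2 difference of 0.05 (SE 0.31, adjusted p = 0.932, DBA2 over FVB). Fibroblasts and endothelium also make Sca-1, so their markers are given beside Ly6a. The summed level of 7 fibroblast markers ran from 371 to 1113 CPM in primary tumor TIMs, from 2.3 to 87.1 CPM in lymph node TIMs and from 1.32 to 42.8 CPM in LN4K1 lung TIMs, and was at most 0.363 CPM in BM IMs, where Col3a1, Dcn, Lum and Pdgfra were at or under 3 counts in both strains. The summed level of 7 endothelial markers was at most 13.6 CPM in BM IMs and 17.6 CPM in LN4K1 lung TIMs, ran from 54.4 to 71.4 CPM in primary tumor TIMs and from 55.5 to 110 CPM in lymph node TIMs, where Tek and Emcn were at or under 3 counts. Pecam1, which leukocytes also express, carried most of the endothelial sum in LN2E1 TIMs, with means of 49.0 CPM in primary tumors and 75.3 CPM in lymph nodes. The part of such cells in the level of Ly6a was not tested.

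**Figure D3:**
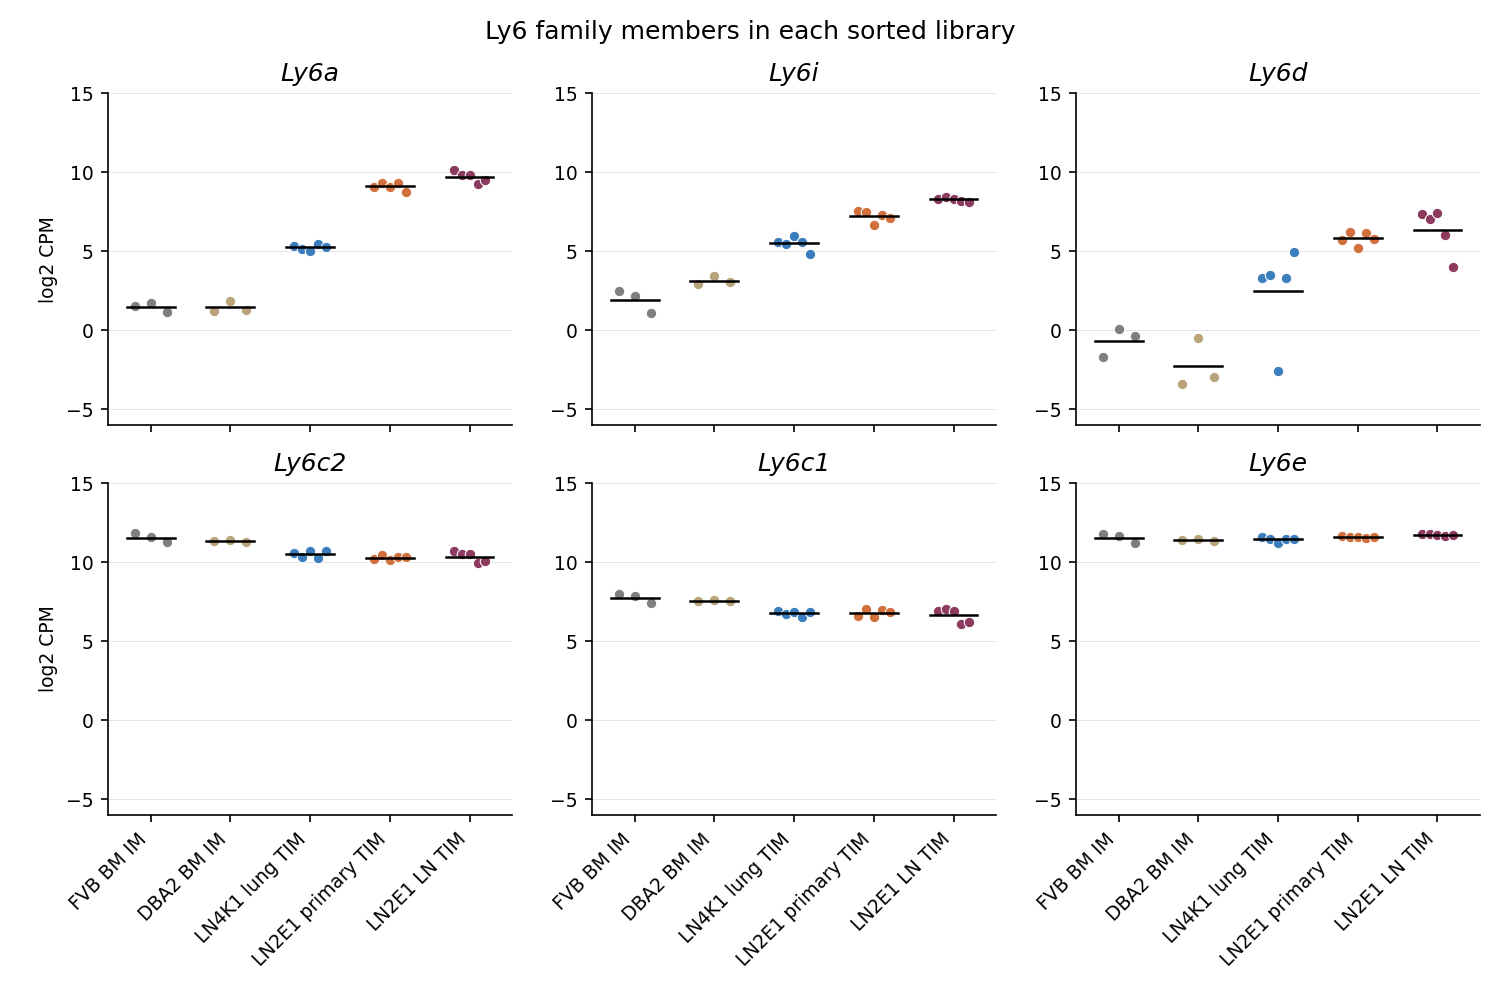
Log2 CPM of each member (vertical axis, prior count 2) in all 21 libraries, 1 panel per gene and 1 point per library, by group, with the mean of the group as a line. For Ly6a and Ly6i the TIM libraries sit above all BM IM libraries, and for Ly6c1 and Ly6c2 they sit below. For Ly6e each TIM group overlaps the BM IMs of its strain.

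Ly6i, the near copy of Ly6a shown above, was the only member whose 5 groups were all separated from their neighbours. FVB BM IMs were at 5.54, 4.59 and 2.16 CPM, and DBA2 BM IMs at 7.82, 10.7 and 8.37 CPM. LN4K1 lung TIMs followed at 48.3, 44.0, 63.7, 49.3 and 29.0 CPM. Primary tumor TIMs were at 188, 184, 101.5, 159 and 141 CPM, and lymph node TIMs at 327, 345, 318, 296 and 283 CPM. The order from FVB BM IMs through DBA2 BM IMs, LN4K1 lung and primary tumor to lymph node held without an overlap. Ly6i had a log2 fold change of 5.23 (SE 0.37, adjusted p = 2.99e-06) in primary tumor TIMs, 6.27 (SE 0.33, adjusted p = 8.64e-07) in lymph node TIMs and 2.33 (SE 0.26, adjusted p = 0.000185) in LN4K1 lung TIMs, which are 37.6-fold, 77.4-fold and 5.02-fold. DBA2 BM IMs were higher than FVB BM IMs, with means of 8.95 ± 1.51 and 4.1 ± 1.74 CPM (SD, n = 3) and a log2 fold change of 1.16 (SE 0.34, adjusted p = 0.0424). Ly6i was the 1 member of 6 called between the strains, where 21.1% of 12905 genes were called and 11.5% were higher in DBA2. It was also the 1 member whose strains did not overlap, as for 42.1% of genes. That call was lost in 4 of 6 fits that left out 1 BM IM library, with adjusted p between 0.0741 and 0.128 without FVB replicate 2 or DBA2 replicate 1, 2 or 3.

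Between the LN2E1 sites, 2 of 6 members were changed, Ly6a and Ly6i, both higher in lymph node than in primary tumor TIMs. Of all 13488 genes tested, 11.7% were changed and 6.15% were higher. Ly6i was higher by 1.03 on the log2 scale (SE 0.15, adjusted p = 0.00226), and no lymph node library overlapped a primary tumor library, which was so for 14.4% of genes. Ly6a was higher by 0.64 (SE 0.16, adjusted p = 0.0268), with overlapping libraries, since lymph node replicate 4 at 632 CPM lay under 2 primary tumor libraries. The Ly6a call was lost without primary tumor replicate 1, 3 or 5 or lymph node replicate 2, with adjusted p between 0.0536 and 0.0739. No member was a DEG in this comparison, and DEGs were 0.0297% of genes.

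Ly6d, a surface antigen of early B-lineage and plasmacytoid dendritic cell progenitors and of keratinocytes, was low in BM IMs, at rank 8786 of 14496 genes per kilobase in FVB and 9919 of 14652 in DBA2, and rose in all 3 TIM groups with a wide spread. FVB BM IMs held 0.286, 1.05 and 0.757 CPM and DBA2 BM IMs 0.0726, 0.697 and 0.106 CPM. Primary tumor TIMs held 51.9, 74.0, 37.7 (replicate 3), 72.8 and 54.6 CPM, and lymph node TIMs 166, 134, 171, 65.8 and 16.1 CPM. LN4K1 lung TIMs held 9.95, 11.5, 0.149, 9.78 and 31.05 CPM. All LN2E1 TIM libraries stood above all BM IM libraries, but lymph node replicate 5 was far under the rest of its group, and LN4K1 replicate 3, with 11 counts, lay within the range of the BM IMs. Ly6d had a log2 fold change of 6.35 (SE 0.46, adjusted p = 3.62e-06) in primary tumor TIMs, or 81.6-fold, and 7.31 (SE 0.93, adjusted p = 0.000211) in lymph node TIMs. In LN4K1 lung TIMs it was 5.33 (SE 1.46, adjusted p = 0.0261), and 5.65 (SE 0.83, adjusted p = 0.000669) without LN4K1 replicate 3. The LN4K1 call was lost without LN4K1 replicate 5 (4.68, adjusted p = 0.0524), DBA2 replicate 1 (4.88, adjusted p = 0.0924) or DBA2 replicate 3 (4.94, adjusted p = 0.103), and DESeq2's shrunken log2 fold change was 1.77. Lymph node and primary tumor TIMs differed by 0.94 (SE 0.49, adjusted p = 0.255) in Ly6d, and by 1.22 (SE 0.28, adjusted p = 0.0225) without lymph node replicate 5. DBA2 BM IMs differed from FVB BM IMs by -1.23 (SE 1.01, adjusted p = 0.412).

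LN4K1 replicate 3 and lymph node replicate 5, low in Ly6d, were also low in Ccr9 and Siglech, markers of plasmacytoid dendritic cells. Among 8016 genes whose mean log2 CPM exceeded 3, the nearest to Ly6d in pattern over the 21 libraries was Ccr9, a chemokine receptor of those cells. The root mean square difference was 1.07 between log2 CPM values centred on each gene's mean. Ccr9 and Cdh1, given below, were picked for this closeness in these same libraries. Their low values where Ly6d was low follow largely from that choice and are no added evidence. LN4K1 replicate 3 had 0.704 CPM of Ccr9, against 5.53 to 14.2 CPM in the other 4 lung libraries, and lymph node replicate 5 had 15.5 CPM, against 72.2 to 254 CPM. Siglech, a receptor of the same cells, was at 4.35 CPM in LN4K1 replicate 3 and 17.0 to 54.9 CPM in the others of that group. In lymph node replicate 5 it was at 37 CPM against 131 to 476 CPM. Tcf4, another marker of those cells, was instead highest in LN4K1 replicate 3, at 77.2 CPM against 59.1 to 68.7 CPM in the others. In lymph node replicate 5 Tcf4 was lowest, at 72.2 CPM against 123 to 164 CPM. Next nearest to Ly6d were Ly6a and Cdh1, which encodes E-cadherin, each at 1.51. Cdh1 was at 1.11 CPM in LN4K1 replicate 3 (19.3 to 36.9 CPM in the others) and at 8.11 CPM in lymph node replicate 5 (50.1 to 135 CPM in the others). The 6 lung epithelial markers, Cdh1 among them, summed to 7.65 CPM in LN4K1 replicate 3 (30.1 to 120.6 CPM in the others). In lymph node replicate 5 they summed to 9.77 CPM (51.2 to 139.7 CPM in the others). In primary tumor, lymph node and LN4K1 lung TIMs 33.3%, 20.2% and 13.9% of all genes rose. Of the 7 plasmacytoid dendritic cell markers, 6, 6 and 5 were higher in these groups. Their summed CPM ran from 399 to 468 in the FVB BM IMs, 831 to 906.5 in the DBA2 BM IMs, 799 to 1158 in the primary tumor TIMs, 905.5 to 2089 in the lymph node TIMs and 512 to 858 in the LN4K1 lung TIMs. A large part of the sum was Irf8, which monocytes also express, with means of 379, 794, 649, 848 and 603 CPM in the same order. The sum was lowest in lymph node replicate 5 and LN4K1 replicate 3 within their groups, and only Cox6a2, in DBA2 BM IMs, was at or under 3 counts. The 7 squamous markers summed to 0.0135 CPM in LN4K1 replicate 3, the lowest of its group. They summed to at most 0.118 CPM in lymph node TIMs, where Ly6d was highest and 6 of the 7 were at or under 3 counts, to 5.59 CPM in primary tumor TIMs and to 25.1 CPM in LN4K1 lung TIMs. The part of such cells in the level of Ly6d was not tested.

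**Figure D4:**
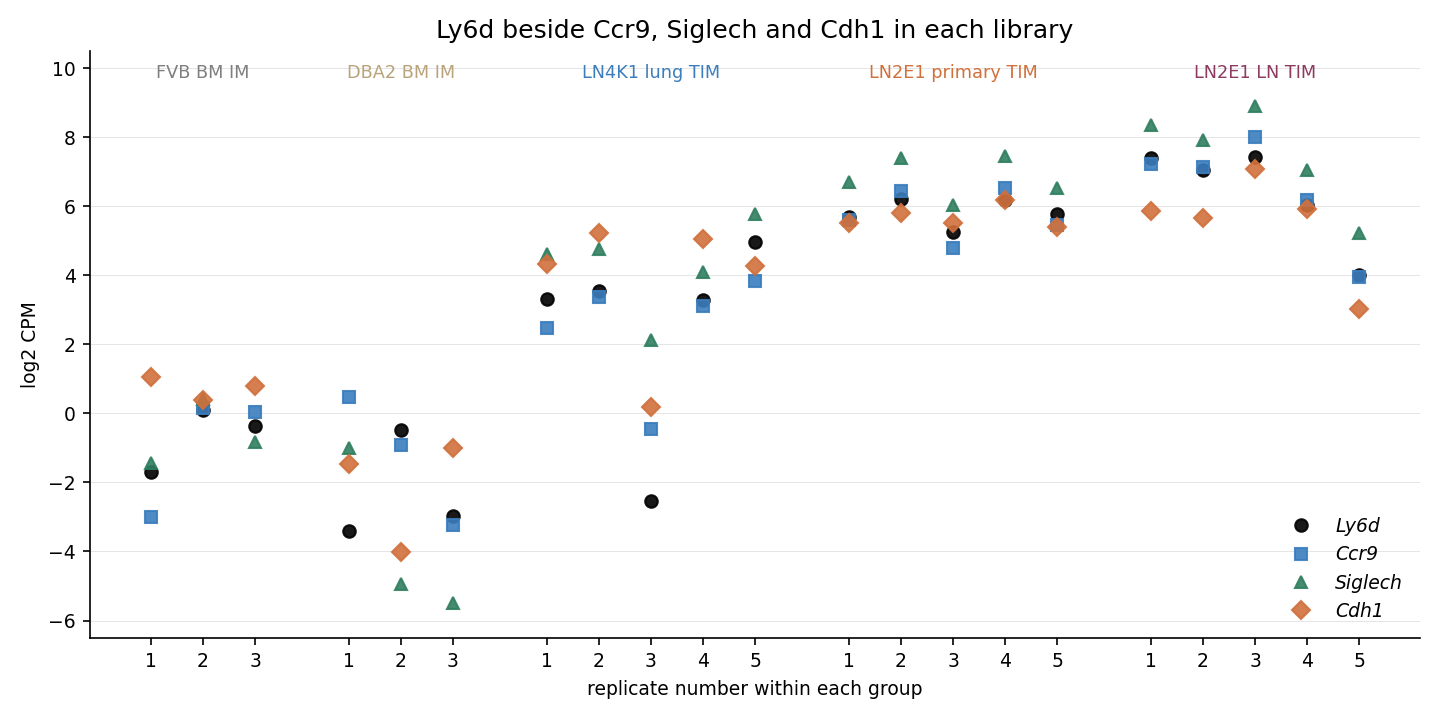
Log2 CPM of Ly6d, Ccr9, Siglech and Cdh1 (vertical axis) in each of the 15 TIM and 6 BM IM libraries, by group and replicate. In LN4K1 lung replicate 3 and lymph node replicate 5 all 4 genes are the lowest of their group. Ccr9 and Cdh1 were picked for their closeness to Ly6d in these same libraries.

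Ly6c2, the main source of the Ly6C antigen on monocytes and thus of the sort marker, fell in every TIM group. FVB BM IMs were at 3618, 3037 and 2455 CPM, and primary tumor TIMs at 1165, 1391, 1109, 1265 and 1300.0 CPM. Lymph node TIMs were at 1676, 1489.8, 1461, 978 and 1071.5 CPM. DBA2 BM IMs were at 2536, 2724 and 2525 CPM, against 1520.0, 1310.1, 1663.5, 1208 and 1672 CPM in LN4K1 lung TIMs. No TIM library reached the lowest BM IM library of its strain, and the 3 TIM groups overlapped each other. The log2 fold change was -1.3 (SE 0.12, adjusted p = 1.68e-05) in primary tumor TIMs, -1.17 (SE 0.2, adjusted p = 0.00116) in lymph node TIMs and -0.88 (SE 0.13, adjusted p = 0.000903) in LN4K1 lung TIMs. Between lymph node and primary tumor TIMs Ly6c2 differed by 0.11 (SE 0.15, adjusted p = 0.684), and between DBA2 and FVB BM IMs by -0.2 (SE 0.13, adjusted p = 0.314).

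Ly6c1, the second Ly6C gene, fell beside Ly6c2 at far fewer counts. It was at 258, 229 and 171.5 CPM in FVB BM IMs and at 95.0, 133, 93.6, 124.5 and 117 CPM in primary tumor TIMs. Lymph node TIMs were at 118, 133, 119.6, 67.5 and 75.0 CPM. DBA2 BM IMs were at 187.5, 199 and 185.5 CPM, and LN4K1 lung TIMs at 122, 104, 113.5, 92.4 and 116 CPM. Here too TIM and BM IM libraries did not overlap. The log2 fold change was -0.97 (SE 0.15, adjusted p = 0.000437) in primary tumor TIMs, -1.09 (SE 0.24, adjusted p = 0.00562) in lymph node TIMs and -0.86 (SE 0.11, adjusted p = 0.000507) in LN4K1 lung TIMs. Summed as 1 feature, the pair had a mean of 3256 ± 624 CPM in the FVB BM IMs (SD, n = 3) and 1359 ± 128 CPM in the primary tumor TIMs (SD, n = 5), a log2 fold change of -1.27 (SE 0.12, adjusted p = 2.09e-05). The sum fell by 1.17 (SE 0.2, adjusted p = 0.00128) in lymph node TIMs and by 0.88 (SE 0.13, adjusted p = 0.000832) in LN4K1 lung TIMs on the log2 scale. The summed pair differed between lymph node and primary tumor TIMs by 0.09 (adjusted p = 0.744) and between DBA2 and FVB BM IMs by -0.2 (adjusted p = 0.319).

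Because reads can pass between these paralogs, the share of Ly6c1 in the counts of the pair was also compared, by two-sided exact permutation tests over libraries. The share was 6.65%, 7.02% and 6.53% in FVB BM IMs, 6.88%, 6.8% and 6.84% in DBA2 BM IMs and 7.42%, 7.33%, 6.39%, 7.1% and 6.48% in LN4K1 lung TIMs. It was 7.54%, 8.73%, 7.79%, 8.96% and 8.27% in primary tumor TIMs and 6.56%, 8.17%, 7.56%, 6.45% and 6.54% in lymph node TIMs. All primary tumor libraries lay above all BM IM libraries, while the other TIM groups overlapped them. The difference of primary tumor TIMs from FVB BM IMs was 1.52 percentage points (exact p = 0.0357, adjusted over 5 comparisons 0.0992), and 0.0357 is the smallest p that 5 libraries against 3 allow. Lymph node TIMs were lower than primary tumor TIMs by 1.2 percentage points, since the difference was -1.2 (exact p = 0.0397, adjusted 0.0992). The other 3 differences were 0.323 points for lymph node TIMs against FVB BM IMs (exact p = 0.643), 0.102 points for LN4K1 lung TIMs against DBA2 BM IMs (exact p = 0.714) and 0.108 points between the strains (exact p = 0.5, with 0.1 the smallest that 3 against 3 allow). No difference in share passed the adjustment.

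**Figure D5:**
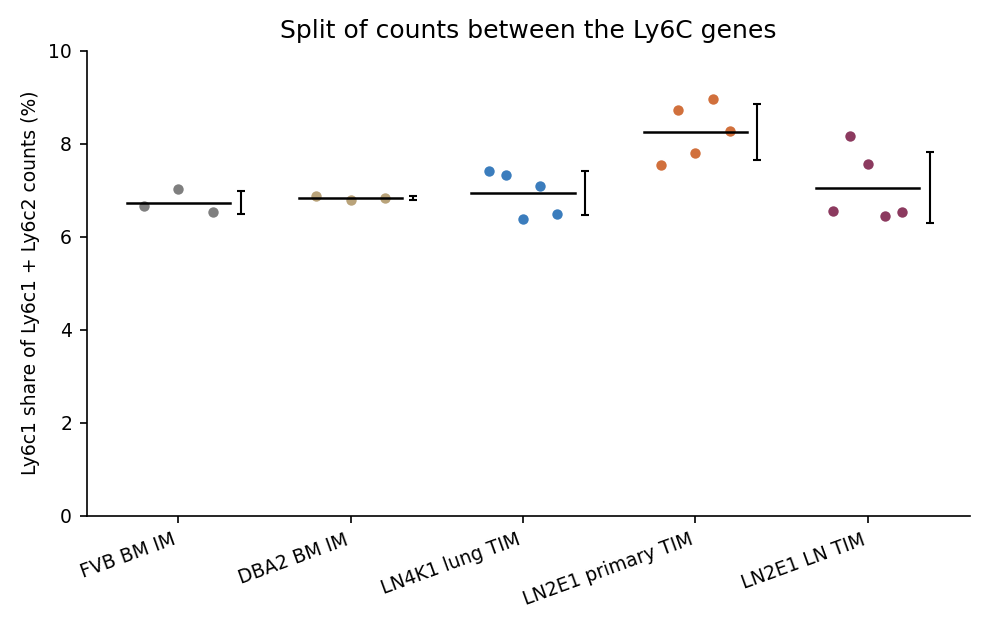
Share of Ly6c1 in the counts of Ly6c1 plus Ly6c2 (percent, vertical axis) in each library, by group, with the group mean as a line and the SD as a bar beside it. Primary tumor TIMs (mean 8.26%) sit above both BM IM groups (means 6.73% and 6.84%), and the other TIM groups overlap them.

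Of the 4 sort markers in the table that are not members, 3 were higher in primary tumor TIMs, 3 in lymph node TIMs and 2 in LN4K1 lung TIMs. None was lower, and the remaining 1, 1 and 2 did not pass. The markers that rose included Emr1, a macrophage marker that is not in the gate given above. Emr1 rose by log2 values of 0.76, 0.66 and 0.85 in primary tumor, lymph node and LN4K1 lung TIMs. Ptprc, encoding CD45, rose by log2 values of 1.57, 1.89 and 1.01 in that order. Itgam, encoding CD11b, rose by 1.97 and 1.67 in LN2E1 TIMs, and its value was 0.53 in LN4K1 lung TIMs (adjusted p = 0.271). The gene of Ly6G was not analysed here. Of all genes tested, 33.3%, 20.2% and 13.9% rose in primary tumor, lymph node and LN4K1 lung TIMs. The shares that fell were 28.6%, 17.2% and 11.0%. Among the 7 markers of classical monocytes other than Ly6C, 5 rose and none fell in primary tumor TIMs, 4 rose and none fell in LN4K1 lung TIMs, and 2 rose and 2 fell in lymph node TIMs. Cd14, the lipopolysaccharide co-receptor, rose by 3.03, 2.91 and 2.64, and Vcan, encoding a matrix proteoglycan, by 2.37, 2.48 and 3.2 in primary tumor, lymph node and LN4K1 lung TIMs. Chil3, listed under its older symbol Chi3l3, rose by 0.99 in primary tumor TIMs and had values of 0.47 (adjusted p = 0.363) and 1.4 (adjusted p = 0.0516) in lymph node and LN4K1 lung TIMs. Of 9 markers of nonclassical monocytes, which carry little Ly6C, 6 rose and 1 fell in primary tumor TIMs, 8 rose in lymph node TIMs, and 6 rose and 1 fell in LN4K1 lung TIMs. Nr4a1, a transcription factor that nonclassical monocytes need, rose by 3.64, 3.27 and 2.24, Ace by 6.18, 7.24 and 1.58 and Eno3 by 3.36, 4.84 and 1.36. Spn, encoding CD43, fell by 0.88 in primary tumor TIMs and by 1.48 in LN4K1 lung TIMs, and its value in lymph node TIMs was 0.51 (adjusted p = 0.083). The summed level of the nonclassical markers was at most 1119 CPM in BM IMs and at least 2436 CPM in every TIM library. It included Nr4a1, also an early-response gene, with means of 1941, 1472 and 2304 CPM in primary tumor, lymph node and LN4K1 lung TIMs and of 153 and 469 CPM in FVB and DBA2 BM IMs. The part of such cells in the fall of Ly6c1 and Ly6c2 was not tested.

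Ly6e, a broadly expressed member known for restricting the entry of coronaviruses, passed the test in none of the comparisons. FVB BM IMs were at 3529.9, 3182 and 2349 CPM and DBA2 BM IMs at 2681, 2817 and 2536 CPM. Primary tumor TIMs were at 3271, 3121, 3119, 2995 and 3108 CPM and lymph node TIMs at 3536, 3463, 3425, 3191 and 3355 CPM. LN4K1 lung TIMs were at 3151, 2811, 2399.5, 2845.5 and 2802 CPM. The libraries of each TIM group overlapped those of the BM IMs of the same strain. Ly6e had a log2 fold change of 0.04 (SE 0.12, adjusted p = 0.809) in primary tumor TIMs, 0.18 (SE 0.13, adjusted p = 0.333) in lymph node TIMs and 0.0 (SE 0.12, adjusted p = 0.984) in LN4K1 lung TIMs. DBA2 and FVB BM IMs differed by -0.15 (SE 0.14, adjusted p = 0.488), and by -0.29 (adjusted p = 0.028) without FVB replicate 3.

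The size of the change was then compared between the models with an interaction term, which takes the change in LN4K1 lung TIMs over DBA2 BM IMs from the change in LN2E1 TIMs over FVB BM IMs. In both interactions 2 of 6 members were called, Ly6a and Ly6i, where 26.5% of 15182 genes were called for primary tumors and 15.4% of 14450 for lymph nodes. The 2 interactions share the LN4K1 and both BM IM groups. The change of Ly6a was larger in LN2E1 primary tumors by 3.95 on the log2 scale (SE 0.26, adjusted p = 1.2e-06) and in lymph nodes by 4.57 (SE 0.3, adjusted p = 3.33e-07). The change of Ly6i was larger by 2.92 (SE 0.4, adjusted p = 0.000288) in primary tumors and by 3.93 (SE 0.37, adjusted p = 6.42e-06) in lymph nodes. For Ly6d the values were 1.04 (SE 1.34, adjusted p = 0.616) and 1.96 (SE 1.48, adjusted p = 0.416). For Ly6c2 they were -0.4 (SE 0.18, adjusted p = 0.108) and -0.32 (SE 0.25, adjusted p = 0.437), and for Ly6c1 -0.09 (SE 0.2, adjusted p = 0.79) and -0.25 (SE 0.28, adjusted p = 0.627). Ly6e gave 0.05 (SE 0.17, adjusted p = 0.885) and 0.15 (SE 0.18, adjusted p = 0.624). Without FVB replicate 3, Ly6c2 passed for primary tumors at -0.52 (adjusted p = 0.0342).

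The genes with the patterns nearest to the other members were found by the same measure as for Ly6d. This is a description over 21 libraries in 5 groups, and neighbours share the groups' depth and composition. They were picked on these same libraries, BM IMs of both strains included. Likeness to a member in group means, fold changes or strain difference thus follows largely from the choice and is no added evidence. For Ly6a the nearest were Cd274, encoding the checkpoint ligand PD-L1, at a difference of 0.62, and Ifitm1, an interferon-induced transmembrane protein gene, at 0.79. Cd274 had means of 2.14 CPM in FVB BM IMs, 3.34 CPM in DBA2 BM IMs, 313 CPM in primary tumor TIMs, 517 CPM in lymph node TIMs and 44.5 CPM in LN4K1 lung TIMs. Cd274 had log2 fold changes of 7.17, 7.91 and 3.68 in the 3 TIM groups, beside 7.64, 8.29 and 3.7 for Ly6a. For Ly6i the nearest were Gbp2, a guanylate-binding protein gene, at 0.4, Isg15, a ubiquitin-like modifier gene, at 0.49, and the chemokine gene Cxcl10 at 0.54. Isg15 and Cxcl10, like Ly6i, were higher in DBA2 than in FVB BM IMs, by 2.12 (adjusted p = 0.00308) and 1.61 (adjusted p = 0.00544) on the log2 scale, and Gbp2 had a value of 0.9 (adjusted p = 0.101). Ly6c1 and Ly6c2 were each other's nearest gene at 0.16, but Atxn10 stood at the same 0.16 from Ly6c2, and Mrpl51 at 0.17. Next to Ly6c1 came Znhit6 at 0.19 and Atxn10 at 0.22. The nearest to Ly6e were Rbm42 at 0.11, Ik at 0.13 and Araf at 0.13.

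Lists of interferon genes were counted in the same comparisons. Beside them, 33.3%, 20.2% and 13.9% of all genes rose in primary tumor, lymph node and LN4K1 lung TIMs. Of all genes, 11.5% were higher in DBA2 than in FVB BM IMs and 6.15% in lymph node than in primary tumor TIMs. The primary tumor and lymph node interactions called 26.5% and 15.4% in either direction. All 26 genes of a type I interferon list rose in primary tumor TIMs (median log2 fold change 2.86) and in lymph node TIMs (3.53). In LN4K1 lung TIMs 7 rose, 2 fell and 17 did not pass (median 0.45), while DBA2 BM IMs were higher than FVB BM IMs in 25 of the 26 (median 1.74). Oas3, an antiviral oligoadenylate synthetase gene, had log2 fold changes of 5.79, 6.04 and 0.22 (adjusted p = 0.716) in primary tumor, lymph node and LN4K1 lung TIMs, its relative Oas2 of 5.65, 5.63 and 1.2, and Rsad2, encoding viperin, of 5.45, 5.85 and 0.36 (adjusted p = 0.215). All 18 genes of an interferon gamma list rose in each of the 3 comparisons, with medians of 3.89, 4.21 and 2.42. Gbp4 rose by 8.37, 8.52 and 6.34, the GTPase gene Iigp1 by 7.88, 8.44 and 5.93, and the chemokine gene Cxcl9 by 7.37, 7.29 and 5.67. Between BM IMs of the strains 7 of these 18 were higher in DBA2 (median 0.59). Lymph node TIMs exceeded primary tumor TIMs in 8 of 26 type I genes and in 8 of 18 interferon gamma genes, and none was lower. The change in LN2E1 over that in LN4K1 was larger for 25 of 26 type I genes in both interactions, and for 13 and 12 of 18 interferon gamma genes.

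Of 30 genes for the synthesis of GPI anchors, 4 rose and 10 fell in primary tumor TIMs (median -0.11), where 33.3% of all genes rose and 28.6% fell. In lymph node TIMs 3 rose and 4 fell (median 0.04), where 20.2% and 17.2% of all genes did, and in LN4K1 lung TIMs 2 rose and 2 fell (median -0.05), where 13.9% and 11.0% did. Pgap2, which acts in the remodeling of the anchor's lipid, rose by 1.26 and 1.48 in LN2E1 TIMs and had a value of 0.65 (adjusted p = 0.0516) in LN4K1 lung TIMs. Piga, which encodes the catalytic subunit of the first step, rose by 0.61 in primary tumor TIMs and had values of 0.02 (adjusted p = 0.964) and -0.55 (adjusted p = 0.0735) in the other TIM groups. Pign, which modifies the anchor's first mannose, rose by 0.65 in primary tumor TIMs, with values of 0.8 (adjusted p = 0.386) and -0.19 (adjusted p = 0.725) in the others. Pigh, a subunit of the enzyme of the first step, fell by 0.87 in primary tumor TIMs and by 0.94 in LN4K1 lung TIMs, and its value in lymph node TIMs was -0.6 (adjusted p = 0.083). Pigyl and Dpm3 fell by 0.86 and 0.83 in primary tumor TIMs and by 0.76 and 0.77 in lymph node TIMs, and had values of 0.11 (adjusted p = 0.698) and -0.05 (adjusted p = 0.853) in LN4K1 lung TIMs.

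Of 43 further genes of the Ly6 and uPAR family, 36 were in the table and most were too low to test. In primary tumor TIMs 14 were tested, of which 7 rose and 3 fell, where 33.3% of all genes rose and 28.6% fell. In lymph node and LN4K1 lung TIMs 13 were tested each, with 4 higher and 1 lower in the former and 4 higher in the latter. There 20.2% and 13.9% of all genes rose, and 17.2% and 11.0% fell. Plaur, encoding the urokinase receptor, was the abundant one. Its means were 533.5 CPM in FVB BM IMs, 1059.5 CPM in primary tumor TIMs, 1891 CPM in lymph node TIMs, 533 CPM in DBA2 BM IMs and 1077 CPM in LN4K1 lung TIMs. It rose by 0.98 (adjusted p = 0.000456), 1.83 (adjusted p = 4.8e-05) and 0.95 (adjusted p = 0.00851) in primary tumor, lymph node and LN4K1 lung TIMs, and was higher in lymph node than in primary tumor TIMs by 0.85 (adjusted p = 0.00618). Cd59a, encoding an inhibitor of the complement attack complex and named here after its values were seen, had means of 2.07, 13.9 and 41.8 CPM in FVB BM IMs, primary tumor TIMs and lymph node TIMs, and of 0.099 and 3.46 CPM in DBA2 BM IMs and LN4K1 lung TIMs.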

How the data were processed

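RNA-Seq was done on 21 samples of sorted IMs from non-stranded SMART libraries with Nextera XT tagging. The authors trimmed reads with BBDuk, aligned them to mm10 with BBMap and deposited raw counts per gene symbol made with featureCounts 1.5.2 (Subread), with SAMtools 1.8 among the submitters' processing notes. How reads matching several genes were treated was not given in the sources used here. Total counts per library were 80772922 to 101043568. Counts were analysed with R 4.3.3, edgeR 4.0.16 and limma 3.58.1, using the robust quasi-likelihood test, TMM scaling, the default filter (10 counts, 15 in total) and Benjamini-Hochberg adjustment over all genes tested, on the groups compared only. CPM values were scaled by TMM over 21 libraries (prior count 2 for log2 CPM). The standard error is the absolute log2 fold change divided by the square root of F, which is approximate. Code was tested on simulated data. Alternatives were DESeq2 1.42.0 (fold changes shrunken and unshrunken), its size factors, looser and stricter filters, all groups in 1 fit, the replicate number as a block, leaving out each library, and Ly6c1 and Ly6c2 summed. Tables, sequences and figures were made in Python 3.11.15 (Biopython 1.88, matplotlib 3.10.9, pandas 2.3.3, numpy 2.4.6, scipy 1.17.1). Named genes were the 6 members, the 3 genes nearest in pattern to each, the sort markers, and up to 3 genes in each direction with the largest change in primary tumor TIMs from the lists of the wider family, GPI synthesis, interferon response and monocytes, at a mean log2 CPM above 3. A marker of classical monocytes and a nearest gene of Ly6a are not reported here, and the marker was left out of its list. Members and lists were chosen with earlier results of these data known.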

Additional observations from a re-analysis of the deposited data

Results flagged for a closer look

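In LN4K1 lung TIMs, replicate 3 stood apart from the other 4 in Ly6d, at -2.55 log2 CPM, by a gap over the limit of 0.71 of the group's range. The 6 members and the Ly6c1 share were checked in each group of 5 libraries, 21 sets in all, of which 1 stood out, and chance alone marks about 1 in 20. The same library was the lowest of its group in Ccr9, Siglech and Cdh1 but the highest in Tcf4, as given above. Ccr9 and Cdh1 had been picked for their closeness to Ly6d in these libraries.

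The change over BM IMs of the same strain differed between the models for 2 members by an interaction test in edgeR. For Ly6a it was larger in LN2E1 than in LN4K1 by 3.95 (primary tumor) and 4.57 (lymph node) on the log2 scale. For Ly6i it was larger by 2.92 and 3.93. Strain, line, route and tissue differ between the models, and the part of each was not tested.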

How the results depend on the processing

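Directions and changed calls of Ly6a, Ly6i, Ly6c1 and Ly6c2 in TIMs against BM IMs held under each alternative run. DEG calls rested on edgeR and differed with DESeq2, as given above for lymph node TIMs. Samples with the same replicate number showed little likeness (correlations of deviations from -0.1 to 0.0569). This cannot tell whether samples of different groups came from the same mice, which the sources used here do not give. With the replicate block, 1 member in place of 2 was called between lymph node and primary tumor TIMs, since Ly6a came to 0.62 (adjusted p = 0.0756), and the LN4K1 call of Ly6d was lost (4.03, adjusted p = 0.144). Leaving out 1 library gave 1 to 3 members called between lymph node and primary tumor TIMs, 0 to 4 between the strains, 4 to 5 for LN4K1 lung TIMs, 2 to 3 for the primary tumor interaction, and 5, 5 and 2 as before in the others. The 4 between the strains came without FVB replicate 3, where Ly6c1 (-0.32), Ly6c2 (-0.32) and Ly6e (-0.29) passed. The summed Ly6C pair, whose alternatives were chosen after seeing the data, ran from -0.32 to -0.06 between the strains (adjusted p = 0.0275 without FVB replicate 3) and from -0.5 to -0.3 in the primary tumor interaction (adjusted p = 0.0414 without FVB replicate 3). The Ly6c1 share differences ran from 1.35 to 1.7 points (primary tumor), 0.0437 to 0.474 (lymph node), -0.0178 to 0.241 (LN4K1 lung), -1.48 to -1.02 (lymph node against primary tumor) and 0.00673 to 0.252 (strains). The causes were not tested. In BM IMs Ly6d rested on 7 to 103 counts, which limits its fold changes.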
